A study of Mus musculus with 12 samples.

Results

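The insulin-like growth factor (IGF) axis was followed in mouse glomerular RNA through 9 of the 26264 gene symbols of the count tables, namely the ligands Igf1 and Igf2, the receptor Igf1r and the binding proteins Igfbp2, Igfbp3, Igfbp4, Igfbp5, Igfbp6 and Igfbp7. The rows were taken by symbol, and the 9 symbols were chosen by family with their measured levels and fold changes across the 4 groups of these same libraries already known, so the values of the main comparisons are given as a description. All 9 were among the 17002 genes that passed the filter on low counts. IGF1 and IGF2 are secreted growth factors that act mainly through the IGF1 receptor, a tyrosine kinase that signals through the insulin receptor substrates and AKT. The IGF binding proteins are secreted too, hold the ligands in the extracellular space and thereby limit or prolong their action, and IGFBP7 binds IGFs weakly. In the kidney the axis is known for its part in glomerular growth and filtration, and proteases such as the pappalysins release the ligands from their binding proteins.

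Glomeruli came from 8-week-old male mice of 2 BALB/c substrains, labelled BALB/cAjcl (here AJcl) and BALB/cByJcl (here ByJcl), both from the same breeder. The 4 groups of 3 libraries each were untreated AJcl mice at baseline, AJcl mice on Day 5 after adriamycin (ADR, the podocyte toxin doxorubicin), untreated ByJcl mice at baseline and ByJcl mice on Day 5 after ADR. ADR was given once, at 10 mg/kg, into the retro-orbital vein. Kidneys were perfused with magnetic beads, bead-loaded glomeruli were pulled out with a magnet, and strand-specific poly(A) libraries were made from their RNA. The Day 5 mice are thus compared with untreated mice and not with saline-injected ones, and the labels do not say whether each library is a separate mouse, so p-values measure the spread between these libraries. Baseline libraries are named A-Ctrl1 to A-Ctrl3 and B-Ctrl1 to B-Ctrl3 below, and Day 5 libraries A-ADR1 to A-ADR3 and B-ADR1 to B-ADR3, where A is AJcl and B is ByJcl.

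Library totals ran from 42198416 to 54687045 counts. A-ADR1 was left out of the main fit, as in the study, and its values are printed beside the others. Its summed markers of the proximal tubule (8 genes, 3922 CPM) and of the distal nephron (6 genes, 2058 CPM) were the highest of the 12 libraries. The 10 podocyte markers summed to between 10076 and 22989 CPM in the 12 libraries and none was at 0, and the 10 glomerular endothelial markers summed to between 12225 and 16983 CPM. The podocyte sum was 19945 to 22989 CPM at baseline and 10076 to 14049 CPM on Day 5 in ByJcl, and in this bulk RNA fewer cells of a type and less RNA per cell cannot be told apart.

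Levels are in CPM, counts scaled to a common library size after TMM normalization, means are over the 11 libraries without A-ADR1, and a level was compared between genes only after division by the length of the canonical transcript. Log2 fold changes (log2FC) and their standard errors (SE) come from edgeR's quasi-likelihood fit of all genes, with the Benjamini-Hochberg adjustment over the 17002 genes, and a gene is called where the adjusted p is below 0.05.

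The binding proteins Igfbp5, Igfbp7 and Igfbp4 made up nearly all of the IGF binding protein transcripts of these glomeruli, and the ligands were low. Of the summed CPM per kb of the 6 binding protein genes, Igfbp5 and Igfbp7 together took 77.8 to 92.1% in the 12 libraries, and 97.1 to 98.9% with Igfbp4 added. Igfbp2 stayed between 0.124 and 0.522%, Igfbp6 between 0.263 and 0.561%, and Igfbp3 between 0.522 and 1.83%. Igfbp5 took 31.3 to 68.0% and Igfbp7 23.3 to 46.5%.

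The order of Igfbp5 and Igfbp7 rested on the transcript length. With the canonical Igfbp7 transcript of 5339 bases, Igfbp5 was above Igfbp7 in 10 of 12 libraries, whereas with the shortest coding Igfbp7 transcript of 1133 bases it was above in 0 of 12. Igfbp5 has 1 coding transcript, of 6006 bases. Igfbp4 was taken at its canonical 3837 bases, and a coding transcript of 489 bases is annotated too, with which its share would be larger and those of Igfbp5 and Igfbp7 smaller. The ratio of Igfbp5 to Igfbp7 CPM, which needs no length to be compared between libraries, was 1.86, 2.54 and 2.99 in A-Ctrl1 to A-Ctrl3 and 1.92, 3.29 and 2.44 in B-Ctrl1 to B-Ctrl3. On Day 5 it was 0.756 in A-ADR1, 2.08 in A-ADR2 and 1.66 in A-ADR3, and 1.72, 1.10 and 1.71 in B-ADR1 to B-ADR3. Each ByJcl Day 5 library thus had a lower ratio than each ByJcl baseline library, while A-ADR2 lay inside the AJcl baseline range.

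**Figure D1:**
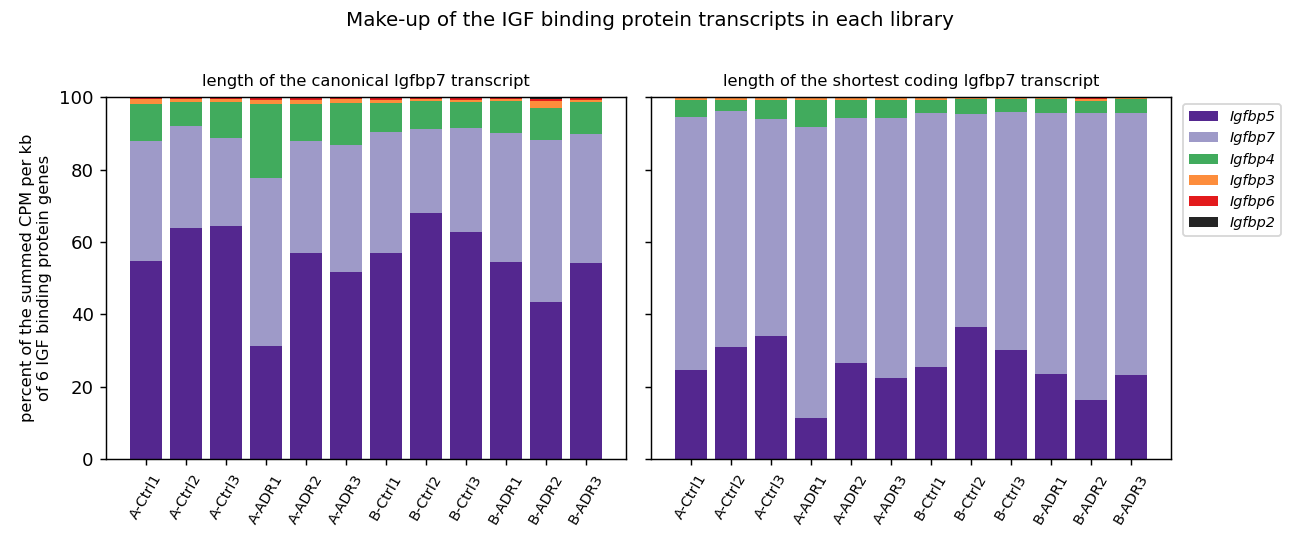
Share of each IGF binding protein gene in the summed CPM per kb of 6 such genes (y axis, percent), 1 bar per library (x axis), with the canonical Igfbp7 transcript on the left and the shortest coding one on the right. Igfbp5, Igfbp7 and Igfbp4 fill all but a thin band of each bar, Igfbp5 takes 31.3 to 68.0% on the left, and A-ADR1 has the smallest Igfbp5 share in both panels.

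By canonical transcript length the ligands were the scarcest transcripts among the 9 genes, but the annotation also holds coding transcripts of 510 bases for Igf1 and 376 bases for Igf2, so their order against Igfbp2 and Igfbp6 is not fixed. Igf1, the main circulating IGF in adult animals, lies on chromosome 10 from 87693642 to 87772904 of GRCm39 on the plus strand and was measured at 44 to 162 counts per library. Its level was 2.71, 3.46 and 2.47 CPM in A-Ctrl1 to A-Ctrl3 and 2.08, 1.69 and 1.73 CPM in B-Ctrl1 to B-Ctrl3. On Day 5 the level was 1.07 CPM in A-ADR1, 2.05 in A-ADR2 and 1.34 in A-ADR3, and 1.33, 1.43 and 0.951 CPM in B-ADR1 to B-ADR3. The AJcl baseline libraries were above all the others, and within each substrain every Day 5 library was below every baseline library, A-ADR1 included. The group order of Igf1 was AJcl baseline (2.88 ± 0.512 CPM, SD, n = 3), ByJcl baseline (1.84 ± 0.214, n = 3), AJcl Day 5 (1.70 ± 0.506, n = 2) and ByJcl Day 5 (1.23 ± 0.251, n = 3), where AJcl Day 5 overlapped both of its neighbours. The log2FC of Day 5 against baseline was -0.76 (SE 0.30) in AJcl and -0.57 (SE 0.27) in ByJcl, and that of ByJcl against AJcl was -0.65 (SE 0.27) at baseline and -0.46 (SE 0.30) on Day 5. Leaving out A-ADR2 moved the AJcl response to -1.12 and the Day 5 difference between substrains to -0.11.

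Igf2, the second ligand, is imprinted and mostly fetal in rodents, and lies on chromosome 7 from 142204503 to 142220694 on the minus strand. It was at 5.14, 4.97 and 5.54 CPM in A-Ctrl1 to A-Ctrl3 and at 8.42, 7.24 and 6.94 CPM in B-Ctrl1 to B-Ctrl3. On Day 5 Igf2 was at 2.83 CPM in A-ADR1, 3.58 in A-ADR2 and 3.49 in A-ADR3, and at 10.8, 4.37 and 4.84 CPM in B-ADR1 to B-ADR3. All ByJcl baseline libraries were above all AJcl baseline libraries, all AJcl Day 5 libraries were below them, and on Day 5 B-ADR1 stood far above the other ByJcl libraries. The group order was ByJcl baseline (7.53 ± 0.779 CPM, SD, n = 3), ByJcl Day 5 (6.65 ± 3.56, n = 3), AJcl baseline (5.22 ± 0.295, n = 3) and AJcl Day 5 (3.54 ± 0.0680, n = 2), and ByJcl Day 5 overlapped both of its neighbours. Igf2 had a log2FC between substrains, ByJcl against AJcl, of 0.53 (SE 0.30) at baseline and 0.91 (SE 0.34) on Day 5, and of Day 5 against baseline of -0.56 (SE 0.34) in AJcl and -0.18 (SE 0.29) in ByJcl. Without B-ADR1 the ByJcl response was -0.71 and edgeR called it (adjusted p = 0.0379), and the Day 5 difference between substrains was 0.37. Without B-ADR2 or without B-ADR3 the ByJcl response had the other sign, at 0.05 and 0.03.

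Summed fibroblast markers (7 genes, among them Col1a1, Col3a1 and Dcn) were also lower on Day 5, at 458 to 656 CPM in AJcl and 572 to 644 CPM in ByJcl at baseline against 258 to 369 and 153 to 242 CPM on Day 5. Col1a2 held most of that sum, up to 2 of the 7 markers (Lum and Dpt) were at 0 in a library, and the part of these cells in the ligand values was not tested. Of the 6 fibroblast markers with enough counts, 5 had a negative log2FC in each substrain and 1 was called, in ByJcl. Igf1, with a canonical transcript of 7073 bases, had 0.175 to 0.407 CPM per kb as a group mean, and Igf2, of 3708 bases, had 0.953 to 2.03. Igf1 overlaps the antisense gene Igf1os and Igf2 overlaps Igf2os, and Igf2 lies within the readthrough gene Gm49394 on the same strand. The strand setting of the counting is not given in the sources used here, so reads shared with these genes cannot be set apart.

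The receptor Igf1r (chromosome 7, 67601518 to 67883416, plus strand), which passes on the signal of both ligands, was well expressed, at 16.0 to 21.5 CPM per kb as a group mean. Its level was 197, 245 and 239 CPM in A-Ctrl1 to A-Ctrl3 and 247, 289 and 269.6 CPM in B-Ctrl1 to B-Ctrl3. On Day 5 it was 191 CPM in A-ADR1, 285 in A-ADR2 and 223 in A-ADR3, and 170.2, 215 and 213 CPM in B-ADR1 to B-ADR3. In ByJcl each Day 5 library was below each baseline library, whereas in AJcl the Day 5 libraries, A-ADR1 counted, spanned the whole baseline range. The group order was ByJcl baseline (269 ± 20.6 CPM, SD, n = 3), AJcl Day 5 (254 ± 43.7, n = 2), AJcl baseline (227 ± 26.3, n = 3) and ByJcl Day 5 (199 ± 25.2, n = 3), and each group overlapped its neighbours in that order. The log2FC of Day 5 against baseline was -0.43 (SE 0.14) in ByJcl, not called by edgeR (adjusted p = 0.0691) but past the threshold in DESeq2 (adjusted p = 0.0452). With A-ADR1 in the fit the adjusted p of edgeR was 0.146 for the ByJcl response of Igf1r. In AJcl the log2FC was 0.16 (SE 0.15), and without A-ADR2 it was -0.04. ByJcl against AJcl gave 0.24 (SE 0.14) at baseline and -0.35 (SE 0.15) on Day 5, or -0.23 on Day 5 with A-ADR1 in the fit.

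In the main fit the ADR response of Igf1r had the largest difference between substrains of the 9 genes, with an interaction log2FC of -0.59 (SE 0.20). It did not pass the threshold (adjusted p = 0.620, edgeR). With A-ADR1 in the fit the interaction log2FC of Igf2 was larger in size, at 0.52 against -0.44 for Igf1r. Across the alternatives the Igf1r difference lay between -0.74 and -0.38. The 10 podocyte markers had a median log2FC of -1.20 after ADR in ByJcl and of -0.40 in AJcl, and their part in the Igf1r values was not tested. Igf1r overlaps the opposite-strand gene Pgpep1l at its end.

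**Figure D2:**
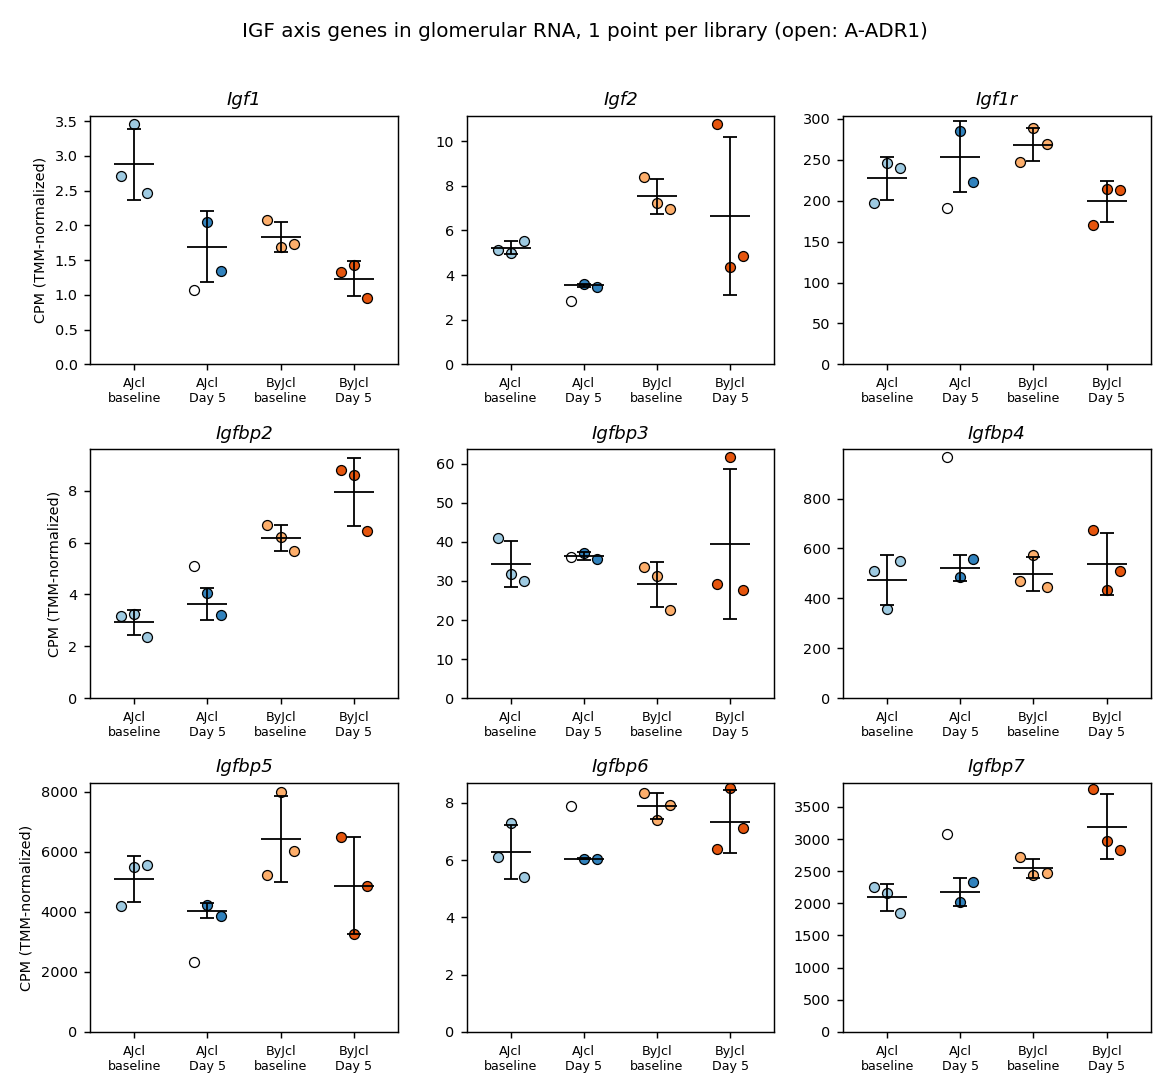
Level of each of the 9 genes (y axis, TMM-normalized CPM, from 0) in the 4 groups (x axis), 1 point per library in replicate order, with the mean and SD of the libraries in the fit and A-ADR1 as an open point outside them. All 6 ByJcl libraries of Igfbp2 lie above all 6 AJcl libraries, Igf1 is lower on Day 5 in both substrains, and B-ADR1 of Igf2, B-ADR2 of Igfbp3 and A-ADR1 of Igfbp4 stand far above the rest of their groups.

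Igfbp2 separated the substrains most clearly of the 9 genes. IGFBP2 is the second most abundant binding protein of plasma and prefers IGF2. Its level was 3.17, 3.24 and 2.35 CPM in A-Ctrl1 to A-Ctrl3 against 6.68, 6.22 and 5.67 CPM in B-Ctrl1 to B-Ctrl3. On Day 5 Igfbp2 was at 5.10 CPM in A-ADR1, 4.06 in A-ADR2 and 3.20 in A-ADR3 against 8.81, 8.60 and 6.44 CPM in B-ADR1 to B-ADR3. Every ByJcl library was above every AJcl library at both times, A-ADR1 included, and within each substrain the baseline and Day 5 ranges overlapped. The group means rose in the order AJcl baseline (2.92 ± 0.496 CPM, SD, n = 3), AJcl Day 5 (3.63 ± 0.609, n = 2), ByJcl baseline (6.19 ± 0.504, n = 3) and ByJcl Day 5 (7.95 ± 1.31, n = 3). ByJcl against AJcl gave a log2FC of 1.08 (SE 0.20, 2.12-fold) at baseline and of 1.13 (SE 0.23, 2.19-fold) on Day 5, or 0.95 on Day 5 with A-ADR1 in the fit. Neither was called by edgeR (adjusted p = 0.112 and 0.0943), and both passed in DESeq2 (adjusted p = 0.000414 and 0.000583). The response of Igfbp2 to ADR was 0.32 (SE 0.23) in AJcl and 0.36 (SE 0.20) in ByJcl, with an interaction log2FC of 0.04 (SE 0.30).

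The alternatives kept the Igfbp2 difference between 0.95 and 1.17 at baseline and between 0.95 and 1.32 on Day 5. The sums of the macrophage markers (8 genes) did not overlap between the substrains at baseline either, with 56.8 to 81.3 CPM in AJcl and 96.8 to 170.9 CPM in ByJcl, and those of the distal nephron (6 genes) were 551 to 1659 CPM in AJcl and 141 to 555 CPM in ByJcl. On Day 5 the distal nephron sums did not overlap, at 845 to 2058 CPM in AJcl and 101 to 527 CPM in ByJcl. The proximal tubule markers (8 genes) summed to 999 to 3578 CPM in AJcl and 413 to 1846 CPM in ByJcl at baseline, and to 1591 to 3922 and 380 to 1662 CPM on Day 5. Of these 8 and the 6 of the distal nephron, 0 had a positive log2FC of ByJcl against AJcl at either time. The arterial endothelial markers (4 genes) were higher in ByJcl without overlap at both times, at 382 to 432 CPM in AJcl and 436 to 511 CPM in ByJcl at baseline and at 360 to 391 and 446 to 553 CPM on Day 5. The glomerular endothelial sums were apart at baseline, at 13315 to 14942 CPM in AJcl and 15013 to 16983 CPM in ByJcl. Day 5 sums of the substrains were also apart for the fibroblast markers, lower in ByJcl, and for the mesangial and smooth muscle markers, higher in ByJcl, with the ranges given beside Igf1, Igf2 and Igfbp7. On Day 5 the macrophage sums were 40.5 to 81.0 CPM in AJcl and 85.1 to 151 CPM in ByJcl, no marker of these lists other than Lum and Dpt of the fibroblast list was at 0 in any library, and their part in the Igfbp2 values was not tested. Igfbp2, on chromosome 1 from 72863606 to 72891634 of GRCm39 on the plus strand, lies 5456 bases from Igfbp5, which runs from 72897091 to 72914043 on the minus strand. Its neighbour did not show the same separation, since the Igfbp5 libraries of the substrains overlapped at both times.

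The values of Igfbp3 (chromosome 11, 7156086 to 7164179, minus strand), the main carrier of IGFs in plasma, rested on single libraries. It was at 41.1, 31.8 and 30.1 CPM in A-Ctrl1 to A-Ctrl3 and at 33.7, 31.2 and 22.6 CPM in B-Ctrl1 to B-Ctrl3. On Day 5 Igfbp3 was at 36.2 CPM in A-ADR1, 37.1 in A-ADR2 and 35.7 in A-ADR3, and at 29.2, 61.6 and 27.8 CPM in B-ADR1 to B-ADR3. B-ADR2 alone was far above all other libraries, and the groups overlapped in each of the 4 comparisons. The ByJcl response had a log2FC of 0.44 (SE 0.28), which was -0.03 without B-ADR2, and the Day 5 difference between substrains of 0.12 (SE 0.31) became -0.35 without it. The same values were 0.08 (SE 0.31) for the AJcl response and -0.24 (SE 0.28) for ByJcl against AJcl at baseline. Group means were 34.3 ± 5.90 CPM in AJcl (SD, n = 3) and 29.2 ± 5.83 in ByJcl (n = 3) at baseline, and 36.4 ± 1.00 (n = 2) and 39.5 ± 19.2 (n = 3) on Day 5.

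Igfbp4 (chromosome 11, 98932064 to 98945218, plus strand), which inhibits IGF action and is the main substrate of the protease PAPPA, did not separate any of the groups. Its levels were 508, 359 and 550.0 CPM in A-Ctrl1 to A-Ctrl3 and 470.4, 575 and 445 CPM in B-Ctrl1 to B-Ctrl3. On Day 5 they were 967 CPM in A-ADR1, 486 in A-ADR2 and 557 in A-ADR3, and 672, 432 and 509 CPM in B-ADR1 to B-ADR3. A-ADR1 held the highest Igfbp4 level of all 12 libraries and the highest sums of both tubular marker lists. B-ADR1, at 672 CPM of Igfbp4, held the lowest proximal tubule and distal nephron sums of the 12, at 380 and 101 CPM. The part of tubular cells in the Igfbp4 values was not tested. The log2FC of Igfbp4 lay between 0.04 and 0.14 in the 4 comparisons, with SEs of 0.19 to 0.22, and with A-ADR1 in the fit it was 0.49 for the AJcl response and -0.32 for ByJcl against AJcl on Day 5.

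Igfbp5, the most conserved of the binding proteins and one that binds to extracellular matrix, had 108734 to 378437 counts per library. It was at 4198, 5501 and 5555 CPM in A-Ctrl1 to A-Ctrl3 and at 5230.2, 8011 and 6021 CPM in B-Ctrl1 to B-Ctrl3. On Day 5 Igfbp5 was at 2331 CPM in A-ADR1, 4217 in A-ADR2 and 3871 in A-ADR3, and at 6511, 3259.7 and 4857 CPM in B-ADR1 to B-ADR3. The means were lower on Day 5 in both substrains, but A-ADR2 was just inside the AJcl baseline range and B-ADR1 was above most ByJcl baseline libraries. The group order was ByJcl baseline (6421 ± 1433 CPM, SD, n = 3), AJcl baseline (5085 ± 768, n = 3), ByJcl Day 5 (4876 ± 1626, n = 3) and AJcl Day 5 (4044 ± 245, n = 2), and neighbours in that order overlapped. The response to ADR was a log2FC of -0.33 (SE 0.28) in AJcl, or -0.56 with A-ADR1, and -0.40 (SE 0.25) in ByJcl. ByJcl against AJcl gave 0.34 (SE 0.25) at baseline and 0.27 (SE 0.28) on Day 5, the latter -0.01 without B-ADR1.

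Igfbp6 (chromosome 15, 102052697 to 102057953, plus strand), which prefers IGF2 over IGF1, was low, at 5.42 to 8.53 CPM. It was at 6.11, 7.29 and 5.42 CPM in A-Ctrl1 to A-Ctrl3 and at 8.33, 7.41 and 7.94 CPM in B-Ctrl1 to B-Ctrl3. On Day 5 Igfbp6 was at 7.89 CPM in A-ADR1, 6.05 in A-ADR2 and 6.04 in A-ADR3, and at 6.37, 8.53 and 7.13 CPM in B-ADR1 to B-ADR3. The baseline ranges of the substrains did not overlap, and on Day 5 they did not overlap only while A-ADR1 was left out. ByJcl against AJcl gave a log2FC of 0.33 (SE 0.17) at baseline and 0.28 (SE 0.19) on Day 5, and the responses to ADR were -0.05 (SE 0.19) in AJcl and -0.10 (SE 0.17) in ByJcl.

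Igfbp7 (chromosome 5, 77493130 to 77555931, minus strand), a secreted protein of vessel walls and basement membranes, was highest in ByJcl on Day 5. Its level was 2251, 2168 and 1856 CPM in A-Ctrl1 to A-Ctrl3 and 2719, 2438 and 2469 CPM in B-Ctrl1 to B-Ctrl3. On Day 5 it was 3085 CPM in A-ADR1, 2028 in A-ADR2 and 2333 in A-ADR3, and 3776, 2965 and 2837 CPM in B-ADR1 to B-ADR3. Without A-ADR1 the libraries formed 3 steps, with both AJcl groups lowest, ByJcl baseline above them and ByJcl Day 5 highest. The means were 2092 ± 208 CPM (SD, n = 3) and 2180.4 ± 215 (n = 2) in AJcl at baseline and on Day 5, and 2542 ± 154 (n = 3) and 3192 ± 509 (n = 3) in ByJcl. A-ADR1 lay inside the ByJcl Day 5 range.

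ByJcl against AJcl gave Igfbp7 a log2FC of 0.28 (SE 0.14) at baseline and 0.55 (SE 0.16, 1.46-fold) on Day 5, where edgeR did not call it (adjusted p = 0.195) and DESeq2 did (adjusted p = 0.0172). With A-ADR1 in the fit the Day 5 value was 0.36 (adjusted p = 0.297, edgeR). The response to ADR was 0.33 (SE 0.14) in ByJcl and 0.06 (SE 0.16) in AJcl, with an interaction log2FC of 0.27 (SE 0.22) that did not pass the threshold (adjusted p = 0.750, edgeR). The summed mesangial markers (5 genes) were 2403 to 3132 CPM in ByJcl on Day 5, 1949 to 2355 CPM in AJcl on Day 5 and 1869 to 2478 CPM in the other groups, and those of smooth muscle (6 genes) were 707 to 859 CPM, 526 to 566 CPM and 529.6 to 624 CPM. No mesangial or smooth muscle marker was at 0, and their part in the Igfbp7 values was not tested. Igfbp7 overlaps the opposite-strand gene Polr2b.

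**Figure D3:**
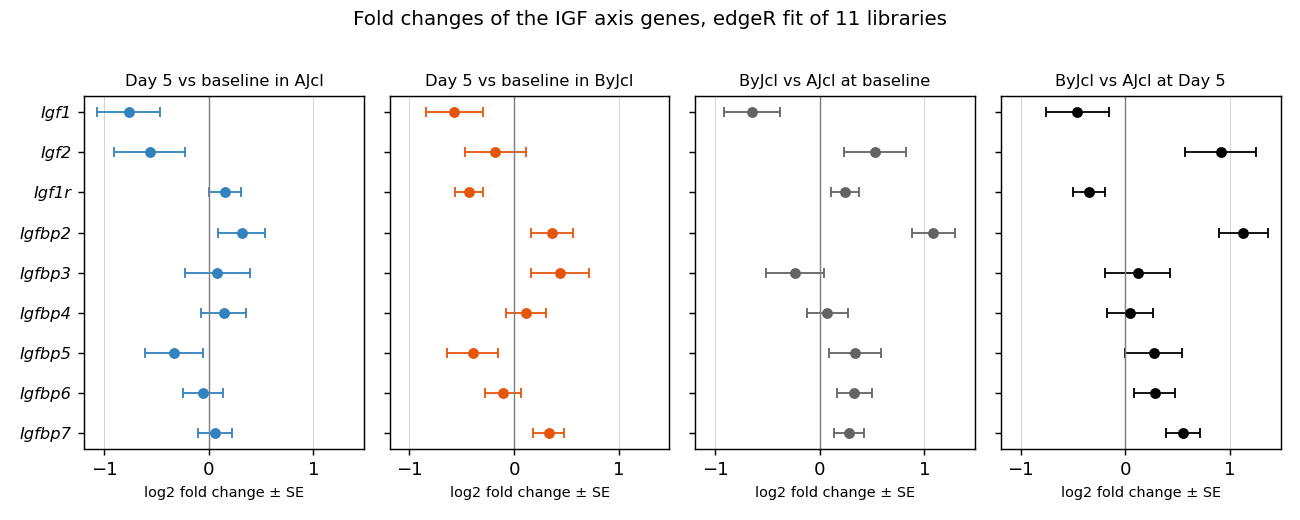
Log2 fold change (x axis) of the 9 genes (y axis) in 4 comparisons, 1 panel each, from the edgeR fit of 11 libraries, with bars of 1 SE on each side. Igfbp2 lies at 1.08 and 1.13 in the panels of ByJcl against AJcl, Igf1 lies at -0.76 and -0.57 in the panels of the ADR response, and Igfbp4 is close to 0 in all 4.

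Counted over the 9 genes, edgeR called 0 in each of the 5 comparisons. At an unadjusted p below 0.05 there were 1 in the AJcl response (Igf1), 2 in the ByJcl response, 2 in ByJcl against AJcl at baseline, 4 in the same comparison on Day 5 and 1 in the interaction (Igf1r), where all genes gave 9.8%, 26.8%, 8.34%, 14% and 8.02%. DESeq2 called 0 in the AJcl response, 1 in the ByJcl response (Igf1r), 1 at baseline (Igfbp2), 2 on Day 5 (Igfbp2 and Igfbp7) and 0 in the interaction. Over all tested genes edgeR called 0.312% in the AJcl response, 10.6% in the ByJcl response, 0.159% between substrains at baseline, 0.165% between substrains on Day 5 and 0% in the interaction, where 1363 genes had an unadjusted p below 0.05. The corresponding shares in DESeq2 were 1.77%, 15.8%, 0.631%, 3.49% and 0.143%. Since the 9 genes were picked with these comparisons known, nothing is read from their counts against these shares.

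The libraries of the compared groups did not overlap for 2 of the 9 genes in the AJcl response (Igf1 and Igf2) and for 3 in the ByJcl response (Igf1, Igf1r and Igfbp7). They did not overlap for 6 between the substrains at baseline (Igf1, Igf2, Igf1r, Igfbp2, Igfbp6 and Igfbp7) and for 5 on Day 5 (the same without Igf1, and with AJcl and not ByJcl higher for Igf1r). Over all genes this held for 25.1%, 33.4%, 14.5% and 33.4% in the same order. With A-ADR1 the counts of the 9 genes were 2, 3, 6 and 2, the shares of all genes were 12.9% in the AJcl response and 19.4% between substrains on Day 5, and Igf2 and Igfbp2 were the 2 that remained apart on Day 5. The median log2FC of the 9 genes was 0.060 in the AJcl response, -0.10 in the ByJcl response, 0.28 between substrains at baseline and 0.27 on Day 5, and 0.045 for the interaction. The medians of all genes were -0.0091, 0.0066, 0.0084, 0.0019 and 0.0028.

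The other genes of the IGF pathway were read from a list of 35, which holds receptors, proteases, signal carriers, feedback genes and genes with an IGF binding domain, and of which 34 were tested. In the ByJcl response to ADR, 5 of the 34 rose and 1 fell, against 978 and 822 of all 17002 genes, that is 10.6% called. In the other 4 comparisons edgeR called 0 of the 34, with 4 in the AJcl response, 5 and 8 between substrains at baseline and on Day 5, and 7 in the interaction at an unadjusted p below 0.05, against 9.8%, 8.34%, 14% and 8.02% of all genes. DESeq2 called 2 of the 34 in the AJcl response (Irs2 and Foxo3), 8 in the ByJcl response (the 6 of edgeR, and Esm1 and Kazald1, which were lower on Day 5), 0 and 3 between substrains (Insrr, Ccn1 and Socs2 on Day 5) and 0 in the interaction. The median log2FC of the 34 was 0.14 in the AJcl response, -0.053 in the ByJcl response, 0.14 between substrains at baseline, -0.10 on Day 5 and -0.17 for the interaction.

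The gene that rose most was Pappa2, a protease that cleaves IGFBP5 and IGFBP3 and so frees their ligands. Its level was 0.824, 0.466 and 0.589 CPM in B-Ctrl1 to B-Ctrl3 and 2.30, 7.36 and 2.07 CPM in B-ADR1 to B-ADR3. All ByJcl Day 5 libraries were above all ByJcl baseline libraries, and B-ADR2 was the highest. The log2FC was 2.64 (SE 0.50, 6.22-fold, adjusted p = 0.00937, edgeR), and it was 1.80 without B-ADR2. In AJcl, Pappa2 was at 1.70, 2.15 and 2.35 CPM in A-Ctrl1 to A-Ctrl3 and at 2.64, 5.33 and 2.88 CPM in A-ADR1 to A-ADR3, with a log2FC of 0.99 (SE 0.51, adjusted p = 0.581, edgeR). At baseline each ByJcl library was below each AJcl library, at a log2FC of -1.72 (SE 0.50) that edgeR did not call (adjusted p = 0.503) and that had an adjusted p of 0.0603 in DESeq2. Of the 6 distal nephron markers, 0 had a positive log2FC in that comparison, with a median of -1.45, and their part in the Pappa2 values was not tested. The interaction log2FC of Pappa2 was 1.65 (SE 0.72, adjusted p = 0.620, edgeR).

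Socs2, a feedback inhibitor of growth hormone signaling, which drives Igf1 expression in liver, rose in ByJcl from 22.5, 18.7 and 22.0 CPM in B-Ctrl1 to B-Ctrl3 to 38.3, 62.5 and 45.2 CPM in B-ADR1 to B-ADR3. The groups were well apart, with a log2FC of 1.21 (SE 0.23, adjusted p = 0.00974, edgeR). In AJcl it was 19.4, 15.0 and 16.1 CPM in A-Ctrl1 to A-Ctrl3 and 22.2, 14.9 and 27.6 CPM in A-ADR1 to A-ADR3, at a log2FC of 0.34 (SE 0.26) that was -0.18 without A-ADR3. Of the 18 alternatives, all 18 called Pappa2 and all 18 called Socs2 in the ByJcl response.

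Irs2, an adaptor that carries the signal of the IGF1 and insulin receptors, went from 42.6, 58.7 and 43.6 CPM in B-Ctrl1 to B-Ctrl3 to 88.8, 121 and 73.0 CPM in B-ADR1 to B-ADR3 (log2FC 0.97, SE 0.22, adjusted p = 0.0186, edgeR). In AJcl it was at 30.3, 43.4 and 40.5 CPM in A-Ctrl1 to A-Ctrl3, at 66.0 and 93.3 CPM in A-ADR2 and A-ADR3, and at 40.7 CPM, inside the baseline range, in A-ADR1. The AJcl response of Irs2 had a log2FC of 1.06 (SE 0.24) that edgeR did not call (adjusted p = 0.118) and DESeq2 did (adjusted p = 0.00411). Its interaction log2FC was -0.10 (SE 0.32).

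Ccn1 and Ccn2, matricellular proteins with an IGF binding protein-like domain that YAP and TGF-beta signaling induce, rose as well. Ccn1 went from 280.1, 275 and 424 CPM in B-Ctrl1 to B-Ctrl3 to 589, 664 and 777 CPM in B-ADR1 to B-ADR3 (log2FC 1.05, SE 0.23, adjusted p = 0.0159, edgeR), and Ccn2 went from 2259, 2218 and 2162 CPM to 4098, 6300.4 and 3733 CPM (log2FC 1.09, SE 0.24, adjusted p = 0.0168, edgeR). Smooth muscle sums in ByJcl were 576 to 605 CPM at baseline against 707 to 859 CPM on Day 5. Podocyte sums were 19945 to 22989 against 10076 to 14049 CPM. The part of these cells in the Ccn1 and Ccn2 values was not tested. In AJcl the log2FC was 0.23 (SE 0.25) for Ccn1 and 0.52 (SE 0.26) for Ccn2. Without A-ADR3, the highest AJcl library for both, it was -0.26 and 0.09. A-ADR1, outside the fit, was above every AJcl baseline library for Ccn2, at 3274 CPM against 1770 to 2528. For Ccn1 it was below every one of them, at 239 CPM against 262 to 320. Akt2, a kinase downstream of Irs2, was the 1 gene called by edgeR as lower on Day 5, and it went from 166, 162 and 167 CPM in B-Ctrl1 to B-Ctrl3 to 132, 116 and 126 CPM in B-ADR1 to B-ADR3 (log2FC -0.41, SE 0.10, adjusted p = 0.0285, edgeR). In AJcl, where neither edgeR nor DESeq2 called it, Akt2 was at 139, 171 and 140 CPM in A-Ctrl1 to A-Ctrl3. On Day 5 it was at 115 CPM in A-ADR1, 136 in A-ADR2 and 124 in A-ADR3, each below every AJcl baseline library.

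Esm1 and Kazald1, relatives of the binding proteins by their domain, had larger differences in the same direction that only DESeq2 called with the same libraries and filter. Esm1, a secreted proteoglycan of endothelial cells, went from 11.4, 17.7 and 13.3 CPM in B-Ctrl1 to B-Ctrl3 to 4.69, 3.17 and 9.40 CPM in B-ADR1 to B-ADR3. Its log2FC was -1.29 (SE 0.39, adjusted p = 0.0592 with edgeR and 0.00753 with DESeq2), and 5 of the 18 alternatives called it. Kazald1 went from 6.64, 6.10 and 6.13 CPM to 3.94, 4.76 and 4.21 CPM, at a log2FC of -0.55 (SE 0.17, adjusted p = 0.0579 with edgeR and 0.0228 with DESeq2). All ByJcl Day 5 libraries were below all ByJcl baseline libraries for both genes, and in AJcl, where the groups overlapped, the log2FC was 0.24 (SE 0.43) for Esm1 and -0.0022 (SE 0.18) for Kazald1. The summed glomerular endothelial markers did not overlap in ByJcl either, at 15013 to 16983 CPM at baseline and 13038 to 13884 CPM on Day 5, with 2 of 10 called as lower, and their part in the Esm1 values was not tested. The AJcl value of Esm1 was -0.47 without A-ADR2 and 0.68 without A-ADR3.

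The calls of Irs2, Ccn1, Ccn2 and Akt2 depended on single libraries, since without B-Ctrl1, or without B-ADR2, only Pappa2 and Socs2 of the 34 were called. Without B-Ctrl2 those and Irs2 were called, without B-Ctrl3 those and Ccn1, and without B-ADR3 Akt2 was lost. With A-ADR1 in the fit Irs2 (adjusted p = 0.0570, edgeR) and Akt2 (adjusted p = 0.0558, edgeR) were no longer called.

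**Figure D4:**
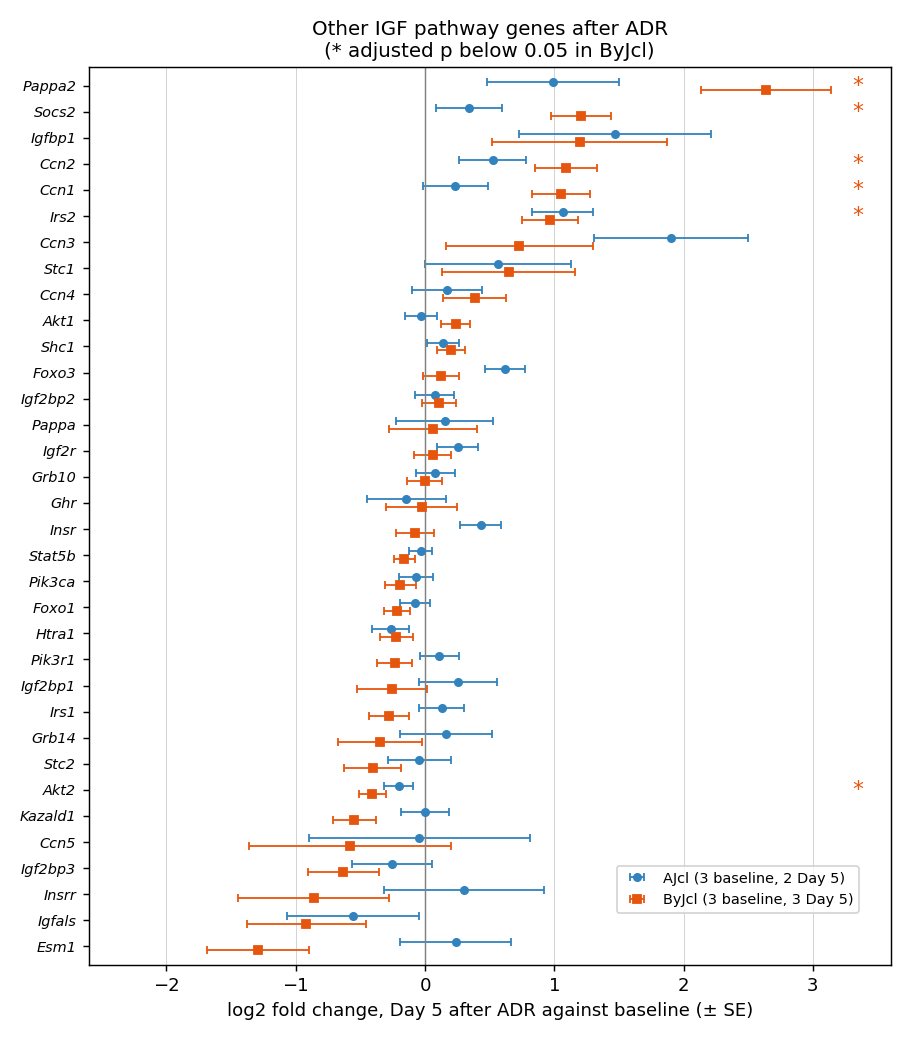
Log2 fold change of Day 5 after ADR against baseline (x axis) of the 34 other pathway genes (y axis, ordered by the ByJcl value), with bars of 1 SE, circles for AJcl and squares for ByJcl. Asterisks mark the 6 genes called in ByJcl, of which Pappa2 lies furthest to the right at 2.64 and Akt2 is to the left of 0 at -0.41.

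Igf2r, Insr, Pappa and Igfbp1 were not called in any comparison by edgeR or DESeq2. The log2FC of Igf2r, which clears IGF2, was 0.25 (SE 0.16) in the AJcl response and 0.06 (SE 0.14) in the ByJcl response. That of Insr, the insulin receptor, was 0.43 (SE 0.16) and -0.08 (SE 0.15). A-ADR1, outside the fit, was below every AJcl baseline library for both genes. It was at 65.4 CPM of Igf2r against 74.1 to 109 at baseline, and at 71.8 CPM of Insr against 79.3 to 106. Per kb, Igf1r had group means of 16.0 to 21.5 CPM against 10.6 to 13.6 for Igf2r and 10.1 to 13.6 for Insr. Pappa, the protease of IGFBP4, was at 1.84 to 4.37 CPM with a log2FC of 0.15 (SE 0.37) and 0.06 (SE 0.34). Igfbp1, an acutely regulated binding protein that lies 3539 bases from Igfbp3 on chromosome 11, was nearly absent at baseline, at 0.405 to 0.995 CPM. On Day 5 it was at 4.31, 1.51 and 2.11 CPM in A-ADR1 to A-ADR3 and at 0.398, 1.06 and 3.98 CPM in B-ADR1 to B-ADR3, above the baseline in each AJcl library and spread over a wide range in ByJcl. Its log2FC was 1.47 (SE 0.74) in AJcl and 1.20 (SE 0.68) in ByJcl, and without B-ADR3 the ByJcl value was -0.10.

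The 9 genes were also set beside the genes of the most similar course, taken as the highest Pearson correlation of log2(CPM + 1) over the 11 libraries among 13639 genes of at least 1 CPM. The points share the 4 groups, the library depth and the tissue make-up, so the values are a description. For Igfbp7 these were Itm2c (r = 0.986, rho = 0.991), Coro1b (r = 0.973, rho = 0.955) and Gnb2 (r = 0.962, rho = 0.927). For Igfbp5 they were Maml2 (r = 0.960, rho = 0.900), Rps6ka2 (r = 0.938, rho = 0.809) and Ttyh3 (r = 0.926, rho = 0.936). Igfbp2 went most closely with Klhl21 (r = 0.948, rho = 0.827), Cyth3 (r = 0.946, rho = 0.945) and BC024063 (r = 0.945, rho = 0.927).

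For Igf2 the list was Scarf1 (r = 0.934, rho = 0.927) and the collagens Col6a1 (r = 0.927, rho = 0.918) and Col1a1 (r = 0.921, rho = 0.918), the last of them in the fibroblast list. The sum of that list was lower in ByJcl than in AJcl on Day 5, where Igf2 had a log2FC of 0.91 (SE 0.34). Of its 6 tested markers, 3 had a positive log2FC in that comparison. Igf1 was closest to Edil3 (r = 0.951, rho = 0.927), Ccbe1 (r = 0.943, rho = 0.936) and Smc2 (r = 0.939, rho = 0.945), and Igf1r was close to Gm15506 (r = 0.941, rho = 0.918) and Slc25a27 (r = 0.941, rho = 0.955). Igfbp6 was close to Dock11 (r = 0.930, rho = 0.936) and Epn2 (r = 0.920, rho = 0.918). Lower values were found for Igfbp3, with Zfp330 (r = 0.920, rho = 0.818), Cacna1e (r = 0.878, rho = 0.882) and Zfas1 (r = 0.852, rho = 0.691), and for Igfbp4, with Aspscr1 (r = 0.850, rho = 0.664), Tmem8b (r = 0.823, rho = 0.727) and Mcrs1 (r = 0.816, rho = 0.718).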

How the data were processed

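RNA-seq counts of glomerulus-enriched RNA from 12 libraries were used. Per the labels and the study's methods, the authors used FastQC, Trimmomatic, STAR on GRCm39 and featureCounts, and the deposited values are raw counts per gene symbol. The gene annotation and the strand setting of the counting are not given in the sources used here. Baseline and Day 5 counts come in separate tables, so their processing and the effect of ADR cannot be told apart. Of the counts from 1 to 49, 77.1 to 82.9% per library were even, so low counts may hold fewer independent units than they show. Why most were even was not tested.

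Groups came from the labels, and A-ADR1 was left out of the main fit because the study excludes it for reduced glomerular purity. Counts were analysed in R 4.3.3 with edgeR 4.0.16 (filterByExpr by group, TMM, glmQLFit with 1 coefficient per group, glmQLFTest, residual df 7) and, as an alternative, DESeq2 1.42.0. SE was taken as the log2FC divided by the root of F. The scripts were tested on simulated data with 200 changed genes. Coordinates and lengths are those of GENCODE vM39 on GRCm39. The members, the pathway list and the marker lists were chosen with earlier results of these data known. All 9 members were named, and of the pathway list each gene called by edgeR in any comparison together with Igfbp1, Igf2r, Insr and Pappa. Genes named beyond this rule were chosen after their values were seen. For each member the most similar genes by Pearson correlation were named too, of which some are not reported here. Replicate numbers did not pair the libraries, as 5 of 15 same-numbered pairs of groups had a correlation of deviations over 0.1. Of the marker lists, those not given in the report had sums of 69.5 to 113.6 CPM for parietal epithelium and 0.177 to 10.2 CPM for erythroid cells.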

Additional observations from a re-analysis of the deposited data

Results flagged for a closer look

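Single outlying libraries were not tested for, since no group held more than 3. In 4 of the other pathway genes, each AJcl Day 5 library of the fit lay on one side of the AJcl baseline mean and each ByJcl Day 5 library on the opposite side of the ByJcl baseline mean. The genes were Insrr, a receptor of the insulin receptor family, with an interaction log2FC of -1.17, Grb14, an adaptor that inhibits insulin receptor signaling, with -0.51, Igf2bp1, an RNA-binding protein, with -0.51, and Irs1, an adaptor of the IGF1 receptor, with -0.41. The difference was tested as the interaction, and edgeR called none of them (adjusted p = 0.729 for Insrr, 0.792 for Grb14, 0.748 for Igf2bp1 and 0.668 for Irs1). The AJcl baseline of Insrr rested on A-Ctrl3 (10.7 CPM against 2.34 and 3.37), A-ADR2 and A-ADR3 lay below that library, and the AJcl response of Insrr ranged from -0.09 without A-Ctrl1 to 1.25 without A-Ctrl3. A-ADR1 shared the direction of the other AJcl Day 5 libraries for Insrr and Grb14 and not for Irs1 and Igf2bp1.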

How the results depend on the processing

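With DESeq2 in place of edgeR, 301 genes were called in the AJcl response, 101 between substrains at baseline, 535 between substrains on Day 5 and 22 in the interaction, against 53, 27, 28 and 0. Among the 9 members DESeq2 called 1 in the ByJcl response, 1 at baseline and 2 on Day 5, against 0, and among the 34 pathway genes 2 in the AJcl response and 3 on Day 5, against 0. Without a filter on low counts, 99 genes were called in the AJcl response and 56 on Day 5. With all 12 libraries, 1197 were called in the ByJcl response, against 1800, and 72 on Day 5.

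A replicate block could be fitted, but the numbers do not pair the libraries, and 4 of 11 libraries correlated best with their own number. Under the block 26 genes were called in the AJcl response, against 53, and 1 member (Igf1r, adjusted p = 0.0277) in the ByJcl response. The block changed no other call of a member and left the pathway count at 6.

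When each library was left out in turn, the calls over all genes ranged from 11 to 180 in the AJcl response (without A-ADR3 and without A-ADR2), from 680 to 2056 in the ByJcl response (without B-ADR2 and without A-Ctrl1), from 12 to 29 at baseline (without A-Ctrl1 and without B-ADR1), from 9 to 218 on Day 5 (without A-ADR2 and without A-ADR3) and from 0 to 5 in the interaction. The member calls ranged from 0 to 1 in the ByJcl response and the pathway calls from 2 to 7 in the ByJcl response and from 0 to 2 on Day 5, and both stayed at 0 in the other comparisons. Without A-ADR2 or A-ADR3, AJcl Day 5 held 1 library, which is then assumed to vary like the other groups. RLE scaling, a stricter filter and counts divided by 2 moved none of these counts by over 1.5 times. Of 810 alternative log2FC values of the members, 40 had the opposite sign, in 18 of 45 effects, and the largest main log2FC among these was 0.44 in size (Igfbp3 in the ByJcl response). CPM of the total counts moved 3 of 36 member group means by more than 1 SD, namely Igf2 (3.64), Igfbp3 (37.5) and Igfbp6 (6.23 CPM) in AJcl on Day 5, where 2 libraries lay close together. The cause of these differences was not tested.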
